A study of Mus musculus with 8 samples.

Results

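The genes described here were 53 genes of DNA replication and the S phase of the cell cycle, chosen by symbol from a fixed list of members and measured in fibroblastic reticular cells (FRC) of the mouse. All 53 were found among the 55367 genes of the count table, and all 53 passed the filter of at least 10 counts in at least 3 libraries, which left 12137 genes for testing. FRCs are the contractile stromal cells that build the conduit network of the lymph node. The cells were a line made from lymph nodes of p53ER/ER C57BL/6 mice, so every group shared that altered p53 allele and no group came from primary cells. For 4 days the line received medium with water (vehicle), medium with 15 mmol/L lactic acid (LA), medium conditioned by FRCs themselves (CCM), or medium conditioned by B16.F10 melanoma cells (TCM). Each group had 2 libraries, numbered 1 and 2, which the study describes as biological replicates. The labels do not say what a number stands for. The comparison of TCM with CCM asked what the tumor cell medium changed, and that of LA with vehicle asked what lactic acid alone changed.

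Before a cell copies its genome, the origin recognition complex, Cdc6 and Cdt1 load the Mcm2 to Mcm7 helicase onto DNA. Cdc45, the GINS complex and Mcm10 then switch the helicase on, and polymerases α, δ and ε copy the strands with a sliding clamp, its loader, a flap nuclease and a ligase. Most of these genes are transcribed at the passage from G1 to S by E2F factors, which are held back by the Rb family until cyclin-dependent kinases act. Their mRNAs are therefore widely used as a sign of cells that are cycling or about to cycle.

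Each library held between 8232889 and 14107964 counted reads, and the count of a member in a library ranged from 16 to 3706. A level of 3 counts, used as the floor, equaled 0.212 to 0.355 CPM (counts scaled to a library of 1000000 reads), below the level of every member in every library. Library scaling by the TMM method used factors from 0.938 to 1.04. Replicates of each group differed by more than counting noise. The chi-square per degree of freedom was 4.82 with vehicle, 7.32 with LA, 3.28 with CCM and 19.8 with TCM, and counting noise alone gives 1. The 10 FRC and fibroblast markers summed to between 19821 and 24577 CPM in every library, most of it from the collagens Col1a1 and Col3a1, while Thy1 (1 to 16 counts) and Icam1 (1 to 8 counts) were near the floor. Of these markers, 8 were tested. Col3a1 (log2 FC −0.68) and Pdgfrb (log2 FC −0.47) were lower with TCM than with CCM. Pdpn (log2 FC 0.44) was higher, and the other 5 were not called. The 8 leukocyte markers summed to between 9.70 and 22.9 CPM. Of them, 6 had no read in any library, whereas Lyz2 had 74 to 213 counts and Cd68 had 2 to 22. The 8 melanocyte markers summed to between 1.82 and 3.67 CPM, and 5 were at or under the floor in every library. Tyrp1, with 6 and 3 counts, and Dct, with 1 and 1, had reads in the TCM libraries and 0 in the others. Pmel, with 10 and 10 counts with TCM and 10 to 21 in the other libraries, was not higher there. Nor was Mitf, with 7 and 6 counts against 9 to 29, and neither was called in TCM over CCM. The part of these markers in the results was not tested.

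The members had their highest mRNA levels with CCM and LA and their lowest with TCM and vehicle. All 4 libraries of CCM and LA lay above all 4 libraries of vehicle and TCM for 42 of the 53 members (79.2%), an order found for 669 of the 12137 genes tested (5.51%). The highest group mean was that of CCM for 45 members and that of LA for 8. TCM had the lowest mean for 41 members and vehicle for 12. The median member stood 0.35 and 0.34 above its own mean on the log2 scale in the CCM libraries, and 0.26 and 0.11 above in the LA libraries. It stood at −0.17 and −0.20 in the vehicle libraries and at −0.28 and −0.40 in the TCM libraries. The spread within a group was therefore widest for LA and TCM, and LA replicate 1 lay above LA replicate 2 for 47 members. In RNA from a whole culture, a smaller share of cells in S phase and less of these mRNAs per cell cannot be told apart.

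**Figure D1:**
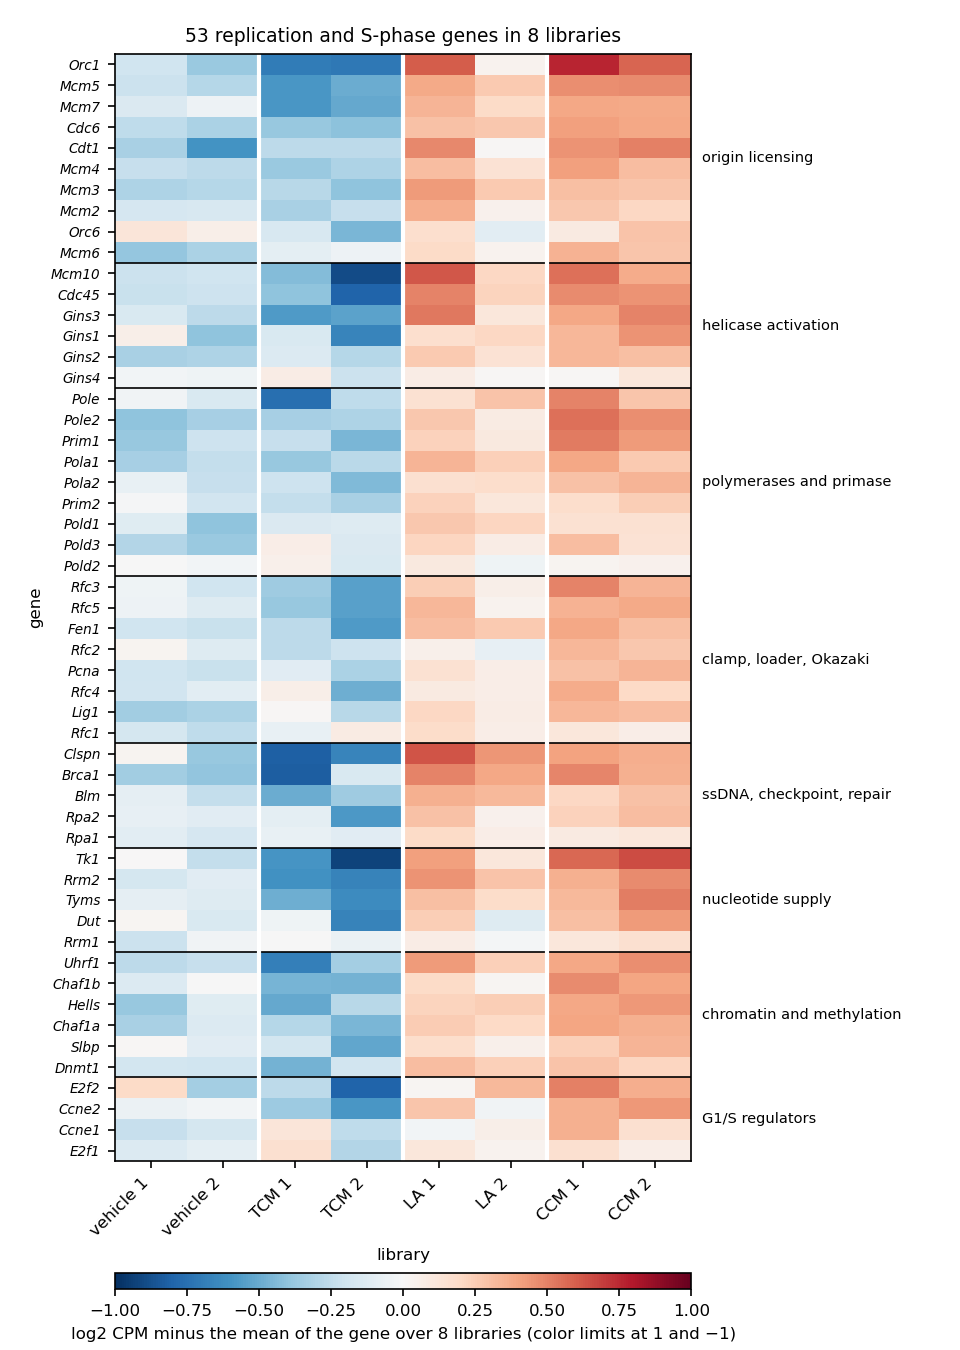
Level of each of the 53 members in each of the 8 libraries, as log2 CPM minus the mean of that gene over the 8 libraries. Rows are genes grouped by role, columns are libraries, and the color runs from blue (below the mean) to red (above). The 4 columns of LA and CCM are mostly red and those of vehicle and TCM mostly blue, with pale rows for Gins4, Pold2, Rfc1, Rpa1 and Rrm1.

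With TCM, 42 of the 53 members were lower than with CCM and 0 were higher. To be called, a gene needed an adjusted P under 0.05 by edgeR's quasi-likelihood test, with Benjamini-Hochberg adjustment over all genes, and a log2 fold change (log2 FC) beyond 0.39. Among all genes tested, 10.2% were called lower and 8.83% higher. The median log2 FC of the members was −0.70, against 0.00 over all genes, and the estimate was below 0 for all 53. The 2 TCM libraries lay below the 2 CCM libraries for 49 members, an order found for 30.5% of all genes. Leaving out 1 library at a time gave between 33 and 45 lower members, and 0 higher in every case. Without TMM factors, which moved the median of all genes by −0.14, 46 members were lower, and over all genes the calls were 651 higher and 2041 lower in place of 1072 higher and 1242 lower.

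With LA, 14 of the 53 members were higher than with vehicle and 0 were lower, where 1.31% of all genes were called higher and 1.24% lower. The median log2 FC was 0.38, and 52 of 53 estimates were above 0, the exception being Orc6 at −0.05 (SE 0.13). For 47 members the LA libraries were both higher than either vehicle library, against 23.7% of all genes. These calls rested on each library of the comparison. Without vehicle replicate 1, vehicle replicate 2 or LA replicate 1 the count was 0, and without LA replicate 2 it was 2, although the median log2 FC stayed between 0.37 and 0.48. It was also 3 without either CCM library and 22 without either TCM library.

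**Figure D2:**
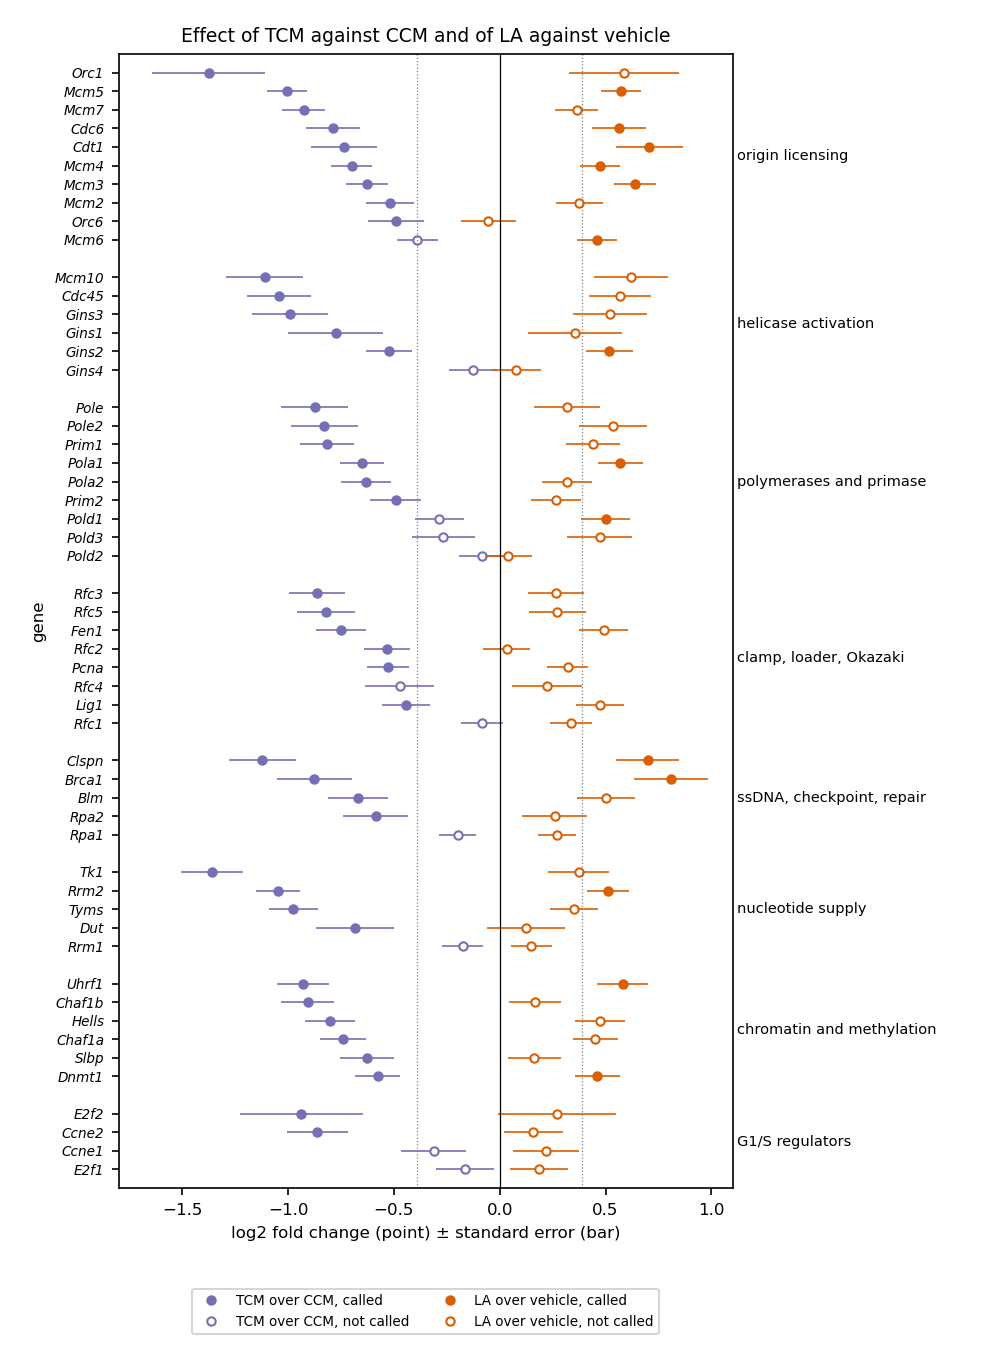
Log2 fold change of each member, as points, with its standard error, as bars, for TCM over CCM (purple) and LA over vehicle (orange). Filled points were called, dotted lines mark log2 FC of 0.39 and −0.39, and genes are grouped by role. Purple points lie left of 0 for all 53 members, and orange points lie right of 0 for 52.

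The 10 origin licensing genes included 9 that fell with TCM and 6 that rose with LA, with median log2 FC of −0.72 and 0.52. Beside this and the other role counts below, 10.2% of all genes were called lower with TCM and 1.31% higher with LA. In a role of few genes, 1 call with LA carries little weight. Mcm5, a subunit of the hexameric replicative helicase, stood at 73.7 and 70.2 CPM with vehicle, 112 and 103 with LA, 118 and 119 with CCM, and 57.2 and 60.6 with TCM. The 4 groups did not overlap, and TCM was lowest. Mcm5 fell 2.01-fold with TCM (log2 FC −1.01 with SE 0.09, adjusted P = 4.77e-05) and rose 1.49-fold with LA (log2 FC 0.57 with SE 0.09, adjusted P = 0.0116). Mcm3, another helicase subunit, stood at 63.3 and 64.5 CPM with vehicle, 105 and 94.1 with LA, 96.5 and 95.3 with CCM, and 64.8 and 59.5 with TCM. Its TCM and vehicle libraries overlapped, and its LA libraries ranged on both sides of those with CCM. Mcm3 had the smallest adjusted P of the role with LA (log2 FC 0.64 with SE 0.10, adjusted P = 0.00859) and also fell with TCM (log2 FC −0.63 with SE 0.10, adjusted P = 0.00121). Mcm7, a further subunit, stood at 56.1 and 59.9 CPM with vehicle, 78.7 and 70.9 with LA, 81.05 and 80.6 with CCM, and 41.4 and 43.7 with TCM. No groups overlapped, with TCM lowest and LA just under CCM. It fell with TCM (log2 FC −0.93 with SE 0.10, adjusted P = 0.00012), and with LA its log2 FC of 0.36 did not pass (adjusted P = 0.0911).

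Cdc6 and Cdt1, the loaders of the helicase, and Mcm4 were also called lower with TCM and higher with LA. Cdt1 had the largest log2 FC of the role with LA, 0.71 (SE 0.16), with libraries at 22.5 and 18.6 CPM with vehicle, 39.3 and 28.3 with LA, 38.5 and 39.9 with CCM, and 23.5 and 23.5 with TCM. The LA libraries of Cdt1 were far apart, and LA replicate 2 lay between the vehicle and CCM values. Orc1, the large subunit of the origin recognition complex, had the largest fall of all members with TCM (log2 FC −1.38 with SE 0.27, adjusted P = 0.00421), on levels of 5.71 CPM with CCM and 2.20 CPM with TCM. Orc6 fell with TCM (log2 FC −0.49 with SE 0.13, adjusted P = 0.0214), whereas Mcm6 had a log2 FC of −0.39 (adjusted P = 0.0139), which the fold threshold of 0.39 left uncalled by a narrow margin. Mcm6 rose with LA (log2 FC 0.46 with SE 0.10, adjusted P = 0.0312).

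**Figure D3:**
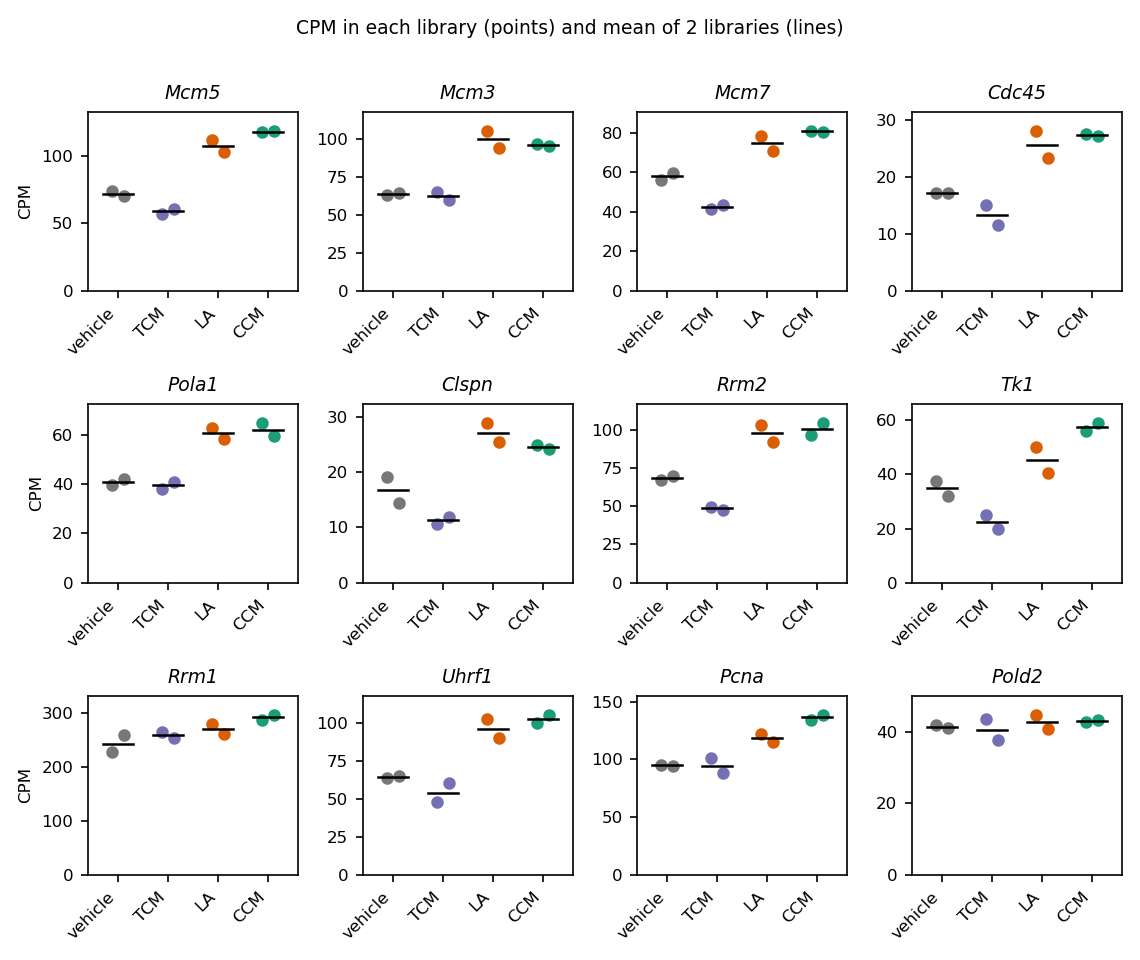
CPM of 12 members in each library (points) with the mean of the 2 libraries (lines), each panel starting at 0. For Mcm5, Mcm3, Mcm7, Cdc45, Pola1, Clspn, Rrm2, Tk1, Uhrf1 and Pcna the LA and CCM points lie above the vehicle and TCM points, while for Rrm1 and Pold2 the groups lie close together.

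The promoters of the members were searched for motifs of cell cycle genes. Promoters were taken from RefSeq on GRCm38.p6 as the 250 bases before and 50 bases after the annotated start, and 45 members had 54 such entries. Ccne2, Gins1, Gins2, Gins4, Mcm4, Pole, Prim2 and Rfc2 were not matched. The motif was searched on both strands as TTTCCCGC, TTTCGCGC, TTTGCCGC or TTTGGCGC, whose matches may overlap each other. It was present in 19 of 54 member promoters, or 35.2% (95% Wilson interval 23.8 to 48.5), against 4.06% of the promoters of genes tested and 2.26% of all 32817. The interval treats entries as independent, although only 38 of the 45 members had 1 entry. By gene, 19 of the 45 members had a match. Within the 200 bases before the start the shares were 18.5% of member promoters and 1.58% of all promoters. The CCAAT motif was present in 59.3% of member promoters and 37.4% of all, with 38.2% for genes tested. TTTGAA, the core of the element called CHR, was present in 13.0% of member promoters, 12.0% of those of genes tested and 17.9% of all. Matches are given for 12 members that fell with TCM or rose with LA, as 30 bases on the strand of the gene, with the E2F match in capitals.
Mcm5, chr8:75109347-75109376, plus strand: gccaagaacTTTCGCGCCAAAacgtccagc
Mcm6, chr1:128359795-128359824, minus strand: gcgtatgctTTTGGCGCGAAAagtgcgtgc
Mcm6, chr1:128359734-128359763, minus strand: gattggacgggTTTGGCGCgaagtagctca
Mcm7, chr5:138172030-138172059, minus strand: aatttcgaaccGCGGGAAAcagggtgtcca
Mcm3, chr1:20820275-20820304, minus strand: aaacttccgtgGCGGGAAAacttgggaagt
Cdc6, chr11:98908002-98908031, plus strand: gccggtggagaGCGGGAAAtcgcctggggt
Orc1, chr4:108579416-108579445, plus strand: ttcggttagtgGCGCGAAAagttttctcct
Gins3, chr8:95633507-95633536, plus strand: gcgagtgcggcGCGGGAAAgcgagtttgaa
Pola1, chrX:93632275-93632304, minus strand: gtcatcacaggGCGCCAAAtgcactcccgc
Rfc3, chr5:151651200-151651229, minus strand: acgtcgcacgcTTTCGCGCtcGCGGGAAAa
Clspn, chr4:126556990-126557019, plus strand: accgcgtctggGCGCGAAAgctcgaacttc
Uhrf1, chr17:56304117-56304146, plus strand: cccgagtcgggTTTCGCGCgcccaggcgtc
Hells, chr19:38930917-38930946, plus strand: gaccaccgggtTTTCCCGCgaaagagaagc
In Mcm5 and in the first Mcm6 stretch, matches on both strands overlap, so 12 bases are in capitals, and the Rfc3 stretch holds a match on each strand. GCGGGAAA, GCGCGAAA and GCGCCAAA are the same motif read on the other strand.

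**Figure D4:**
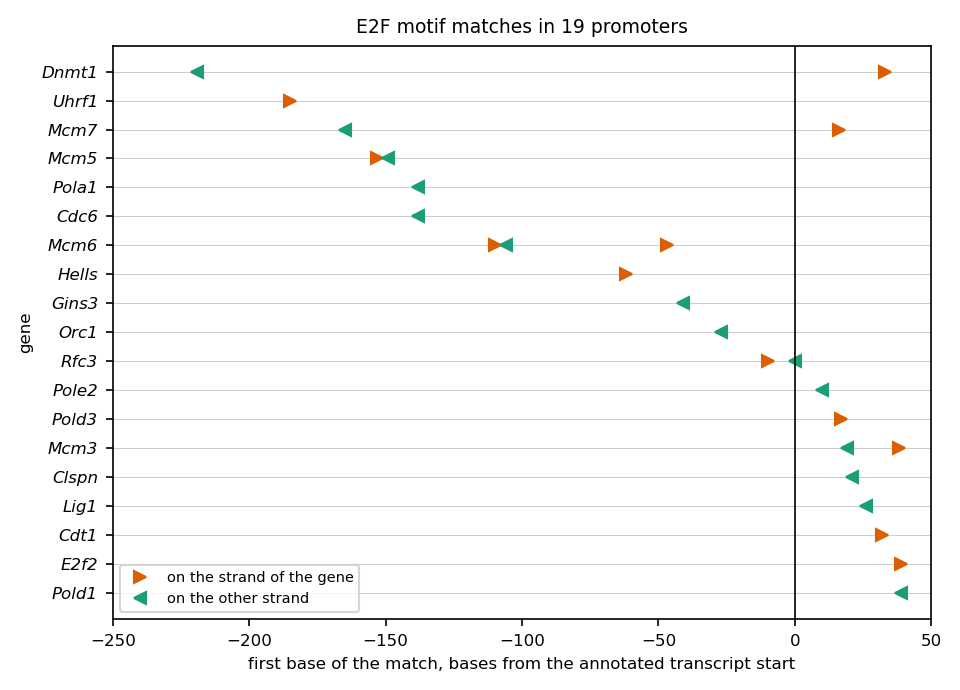
Position of each E2F motif match in the promoters of 19 members, as the distance of its first base from the annotated transcript start in bases, with the arrow showing the strand. Of 26 matches, 17 begin within 100 bases of the start, and Mcm3, Mcm5, Mcm6, Mcm7, Rfc3 and Dnmt1 hold more than 1.

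Helicase promoters carried matches at different distances. In Mcm5 the overlapping matches begin 153 bases before the start, and in Mcm6 the matches begin 110, 106 and 47 bases before it. The 250 bases before the start of each are given, since among the helicase subunits their log2 FC with TCM were the farthest from 0 and the nearest to 0.
Mcm5, chr8:75109259-75109508, plus strand: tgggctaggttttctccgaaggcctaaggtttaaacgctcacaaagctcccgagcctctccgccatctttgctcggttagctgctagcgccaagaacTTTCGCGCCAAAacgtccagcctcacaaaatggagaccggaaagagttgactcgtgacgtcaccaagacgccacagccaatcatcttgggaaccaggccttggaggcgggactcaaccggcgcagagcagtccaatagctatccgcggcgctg
Mcm6, chr1:128359706-128359955, minus strand: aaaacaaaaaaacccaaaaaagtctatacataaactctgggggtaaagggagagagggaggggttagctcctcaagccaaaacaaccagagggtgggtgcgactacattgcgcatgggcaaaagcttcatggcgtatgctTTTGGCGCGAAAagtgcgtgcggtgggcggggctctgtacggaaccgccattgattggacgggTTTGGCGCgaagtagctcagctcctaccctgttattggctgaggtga
Members with a match had a median log2 FC of −0.80 with TCM, and 16 of 19 were lower. Those with a promoter but no match had a median of −0.65, and 19 of 26 were lower. Among all genes tested, 17.4% of 461 with a match were lower (median −0.11), and 9.54% of 8912 without (median 0.01). The members' medians with LA were 0.52 and 0.32. E2F1 and E2F2 protein activity was not measured, and a match is not a binding site.

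Of the 6 genes that activate the helicase, 5 fell with TCM and 1 rose with LA, where 10.2% of all genes fell and 1.31% rose. Cdc45, the helicase cofactor, stood at 17.1 and 17.2 CPM with vehicle, 28.04 and 23.2 with LA, 27.6 and 27.1 with CCM, and 15.1 and 11.5 with TCM. Both TCM libraries lay under the vehicle libraries, and the LA libraries straddled those with CCM. Cdc45 fell 2.06-fold with TCM (log2 FC −1.04 with SE 0.15, adjusted P = 0.000722), while its log2 FC of 0.57 with LA did not pass (adjusted P = 0.0777). Mcm10, which helps the helicase to start, stood at 16.1 and 16.3 CPM with vehicle, 28.7 and 21.6 with LA, 27.3 and 24.2 with CCM, and 13.8 and 10.04 with TCM. It fell 2.16-fold with TCM (log2 FC −1.11 with SE 0.18, adjusted P = 0.00149). Within LA and within TCM the replicates of Mcm10 were further apart than those of vehicle. Gins2, a GINS subunit, stood at 25.9 and 26.2 CPM with vehicle, 38.9 and 35.9 with LA, 40.8 and 39.95 with CCM, and 29.5 and 26.6 with TCM. It was the 1 gene of the role that rose with LA (log2 FC 0.52 with SE 0.11, adjusted P = 0.0327). Its fall with TCM (log2 FC −0.52 with SE 0.11, adjusted P = 0.00603) did not pass without CCM replicate 1 (adjusted P = 0.0579). Gins1, Gins2 and Gins3 fell with TCM, whereas Gins4 had log2 FC of −0.13 (SE 0.12) with TCM and 0.08 (SE 0.12) with LA.

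Among the 9 polymerase and primase genes, 6 fell with TCM and 2 rose with LA. Pola1, the catalytic subunit of polymerase α, stood at 39.5 and 42.1 CPM with vehicle, 62.8 and 58.6 with LA, 65.02 and 59.6 with CCM, and 38.3 and 41.1 with TCM, with vehicle and TCM overlapping and LA and CCM well above them. It fell with TCM (log2 FC −0.65 with SE 0.11, adjusted P = 0.00138) and rose with LA (log2 FC 0.57 with SE 0.10, adjusted P = 0.0194). Prim1, the primase that lays the RNA primer, stood at 18.99 and 21.4 CPM with vehicle, 28.9 and 26.3 with LA, 35.3 and 33.2 with CCM, and 20.97 and 17.9 with TCM. TCM and vehicle overlapped, and CCM was highest. Prim1 fell 1.76-fold with TCM (log2 FC −0.82 with SE 0.13, adjusted P = 0.00106), and its log2 FC with LA was 0.44 (adjusted P = 0.107). Pole and Pole2, the polymerase ε subunits among the members, fell with log2 FC of −0.88 and −0.83. None of the 3 polymerase δ subunits among the members was called with TCM, and their log2 FC were −0.29 for Pold1, −0.08 for Pold2 and −0.27 for Pold3, with SE from 0.11 to 0.15. Pold1 rose with LA (log2 FC 0.50 with SE 0.11, adjusted P = 0.0459).

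The clamp, its loader and the enzymes that join Okazaki fragments held 6 of 8 genes that fell with TCM and 0 called with LA. Pcna, the sliding clamp, stood at 95.4 and 93.98 CPM with vehicle, 122 and 115 with LA, 134 and 139 with CCM, and 101 and 87.8 with TCM. Vehicle lay within the range of TCM, and CCM was highest in both libraries. Pcna fell with TCM (log2 FC −0.53 with SE 0.10, adjusted P = 0.00319), and its log2 FC with LA was 0.32 (SE 0.10, adjusted P = 0.132). Rfc3, a subunit of the clamp loader, stood at 22.2 and 19.9 CPM with vehicle, 27.1 and 23.8 with LA, 32.3 and 28.9 with CCM, and 17.9 and 15.7 with TCM and had the largest fall of the role (log2 FC −0.86 with SE 0.13, adjusted P = 0.00104). Fen1, the flap nuclease, stood at 38.98 and 38.4 CPM with vehicle, 55.2 and 53.6 with LA, 58.4 and 54.96 with CCM, and 37.3 and 30.1 with TCM. It fell with TCM (log2 FC −0.75 with SE 0.12, adjusted P = 0.00112) and with LA had a log2 FC of 0.49 at an adjusted P of 0.0542, just above the threshold of 0.05. Lig1, the ligase, and the loader subunits Rfc2 and Rfc5 also fell, while Rfc1 (log2 FC −0.08) and Rfc4 (−0.47) were not called.

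Of 5 genes for single-stranded DNA, the fork checkpoint and repair, 4 fell with TCM and 2 rose with LA. Clspn, whose product claspin relays the signal of a stalled fork, stood at 19.1 and 14.4 CPM with vehicle, 28.98 and 25.5 with LA, 24.9 and 24.2 with CCM, and 10.6 and 11.9 with TCM. TCM lay under every other library, and LA over every other. It fell 2.18-fold with TCM (log2 FC −1.12 with SE 0.16, adjusted P = 0.000569) and rose 1.62-fold with LA (log2 FC 0.70 with SE 0.15, adjusted P = 0.0332). Brca1, a factor of recombination repair, stood at 17.3 and 16.8 CPM with vehicle, 31.1 and 28.9 with LA, 30.95 and 28.2 with CCM, and 12.4 and 19.9 with TCM. Its TCM libraries stood on both sides of the vehicle libraries. Brca1 had the largest rise of all members with LA (log2 FC 0.81 with SE 0.18, adjusted P = 0.0373) and fell with TCM (log2 FC −0.88 with SE 0.18, adjusted P = 0.00545). Blm, a helicase of recombination, and Rpa2, a subunit of the single-strand binding protein, fell with TCM, and the large subunit Rpa1 had a log2 FC of −0.20 (adjusted P = 0.139).

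For nucleotide supply, 4 of 5 members fell with TCM and 1 rose with LA. Rrm2, the small subunit of ribonucleotide reductase that is made in S phase, stood at 66.9 and 69.7 CPM with vehicle, 103 and 92.1 with LA, 96.2 and 104 with CCM, and 49.6 and 47.4 with TCM. TCM lay below vehicle, and LA overlapped with CCM. It fell 2.07-fold with TCM (log2 FC −1.05 with SE 0.10, adjusted P = 5.84e-05) and rose 1.42-fold with LA (log2 FC 0.51 with SE 0.10, adjusted P = 0.025). Tk1, the thymidine kinase of cycling cells, stood at 37.8 and 32.01 CPM with vehicle, 50.04 and 40.6 with LA, 56.2 and 59.1 with CCM, and 24.98 and 19.9 with TCM, in groups that did not overlap. It had the largest fall of the role, 2.57-fold (log2 FC −1.36 with SE 0.15, adjusted P = 0.000115), and with LA its log2 FC was 0.37 (adjusted P = 0.254). Tyms, thymidylate synthase, and Dut, which clears dUTP, also fell. Rrm1, the large subunit of the reductase, stood at 229 and 259 CPM with vehicle, 279 and 261 with LA, 288 and 297 with CCM, and 264 and 253 with TCM, with TCM values inside or next to those of vehicle, and was called in neither comparison (log2 FC −0.18 with SE 0.10, adjusted P = 0.227 with TCM).

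All 6 members for chromatin, DNA methylation and histone mRNA fell with TCM, and 2 rose with LA. Uhrf1, which guides methylation of new DNA, stood at 63.4 and 64.8 CPM with vehicle, 102 and 90.01 with LA, 99.6 and 105 with CCM, and 47.5 and 60.1 with TCM. It fell with TCM (log2 FC −0.93 with SE 0.12, adjusted P = 0.000361) and rose with LA (log2 FC 0.58 with SE 0.12, adjusted P = 0.0311). Dnmt1, the methyltransferase that Uhrf1 guides, had the same calls, with log2 FC of −0.58 and 0.46. Chaf1b, a subunit of the chromatin assembly factor that sets histones on new DNA, stood at 18.7 and 20.4 CPM with vehicle, 23.4 and 20.7 with LA, 28.5 and 26.96 with CCM, and 14.9 and 14.7 with TCM. It fell with TCM (log2 FC −0.91 with SE 0.13, adjusted P = 0.0005), and with LA its log2 FC of 0.17 was not called. Chaf1a, Hells and Slbp, the stem-loop binding protein of histone mRNA, fell with log2 FC of −0.74, −0.80 and −0.63.

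Of the 4 regulators of the passage from G1 to S, 2 fell with TCM and 0 were called with LA. Ccne2, one of the E-type cyclins, stood at 19.5 and 19.9 CPM with vehicle, 24.6 and 19.8 with LA, 25.97 and 27.4 with CCM, and 15.8 and 13.5 with TCM, with TCM under every other library. It fell 1.82-fold (log2 FC −0.86 with SE 0.14, adjusted P = 0.00157). E2f2, an activator of the E2F family and the member of lowest level per length, stood at 3.46 and 2.41 CPM with vehicle, 3.08 and 3.81 with LA, 4.30 and 3.92 with CCM, and 2.53 and 1.75 with TCM. It passed narrowly (log2 FC −0.94 with SE 0.29, adjusted P = 0.0411), did not pass with DESeq2 (adjusted P = 0.138), and did not pass without CCM replicate 1 (0.197), CCM replicate 2 (0.11), LA replicate 2 (0.0506) or TCM replicate 2 (0.15). Ccne1, the other E-type cyclin, stood at 13.1 and 13.6 CPM with vehicle, 15.02 and 15.9 with LA, 19.6 and 17.1 with CCM, and 16.7 and 12.9 with TCM, where TCM overlapped with LA and vehicle, and had log2 FC of −0.31 with TCM and 0.22 with LA. E2f1, the best known activator, had log2 FC of −0.16 (SE 0.14) and 0.19 (SE 0.14).

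Set side by side, 12 members were both lower with TCM and higher with LA. They were Rrm2, Clspn, Cdc6, Cdt1, Mcm3, Mcm4, Mcm5, Gins2, Pola1, Uhrf1, Brca1 and Dnmt1. Among all genes, 10.2% were called lower with TCM and 1.31% higher with LA. The share of all genes with both calls was not counted, so the 12 have no background beside them. Mcm6 and Pold1 were called with LA alone. The difference between the effect of TCM over CCM and that of LA over vehicle was itself tested in the same fit, and it was negative beyond the threshold for 42 members and positive for 0. Among all genes, 6% were called in that direction (728 genes) and 4.45% in the other (540 genes), or 1085 and 327 genes without TMM factors. The median difference was −1.13, and the smallest adjusted P belonged to Mcm5 (log2 FC −1.58 with SE 0.13, adjusted P = 5.24e-05). Over the 53 members, the log2 FC of the comparisons had a Pearson r of −0.464 and a Spearman rho of −0.479, where r over all 12137 genes was 0.194. Genes of one pathway measured in the same libraries are not independent points, so this is a description.

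The controls differed from each other in these genes. With CCM, 20 members were higher than with vehicle and 0 lower (0.898% and 0.404% of all genes), with a median log2 FC of 0.53 and all 53 estimates above 0. The CCM libraries lay above the vehicle libraries for 52 members, where 25.8% of all genes had that order. The count was 0 without any one of the vehicle or CCM libraries, and 36 without either TCM library, although the median log2 FC stayed between 0.49 and 0.55. Cdt1 (log2 FC 0.94 with SE 0.16, adjusted P = 0.0287) and Prim1 (log2 FC 0.76 with SE 0.13, adjusted P = 0.0287) were among the largest of these differences. Between LA and CCM, 0 members were called in either direction by edgeR, where 0.297% of all genes were higher and 0.33% lower. There, 5 members had an unadjusted P under 0.05, DESeq2 also called 0, and the log2 FC ran from −0.37 to 0.14 with a median of −0.14.

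Against vehicle, 5 members were called lower with TCM, namely Rrm2, Mcm7, Tk1, Tyms and Clspn, and 0 were called higher, where 8.9% of all genes were lower and 8.58% higher. Tk1 had the largest of these falls (log2 FC −0.63 with SE 0.15, adjusted P = 0.0144) and Rrm2 the smallest adjusted P (log2 FC −0.49 with SE 0.10, adjusted P = 0.00711). The share of members called lower was near that of all genes. The median log2 FC was −0.17, and 12 of 53 estimates were above 0. The TCM libraries lay below the vehicle libraries for 25 members (28.1% of all genes) and above them for 6 (27.4% of all genes). Without TMM factors 11 members were lower, under a scaling that moved the median of all genes by −0.10 and gave 703 higher and 1606 lower calls over all genes in place of 1041 and 1080. The count was 2 without either vehicle library and 11 without TCM replicate 1. This comparison shares the TCM libraries with that against CCM and the vehicle libraries with that of LA.

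Ratios between genes whose products work side by side were taken within each library. The 5 pairs were chosen after their values were seen, and such a ratio of counts does not depend on library scaling. The ratio of Rrm2 to Rrm1 counts was 0.292 and 0.269 with vehicle, 0.368 and 0.352 with LA, 0.334 and 0.351 with CCM and 0.188 and 0.187 with TCM. TCM was thus apart from all other groups. The ratio of Mcm7 to Mcm6 counts was 0.762 and 0.776 with vehicle, 0.717 and 0.722 with LA, 0.662 and 0.691 with CCM and 0.462 and 0.470 with TCM, again lowest with TCM. Polymerase ε against polymerase δ, as Pole over Pold1 counts, gave 0.746 and 0.838 with vehicle, 0.648 and 0.737 with LA, 0.894 and 0.767 with CCM and 0.461 and 0.644 with TCM, where TCM replicate 2 lay just under LA replicate 1. The ratio of Gins3 to Gins4 was 0.208 and 0.195 with vehicle, 0.311 and 0.244 with LA, 0.295 and 0.297 with CCM and 0.147 and 0.182 with TCM, where TCM was lowest and vehicle next. The ratio of Rpa2 to Rpa1 was 0.156 and 0.159 with vehicle, 0.164 and 0.150 with LA, 0.168 and 0.175 with CCM and 0.150 and 0.111 with TCM, and here TCM replicate 1 was level with LA replicate 2, so those groups were not apart.

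Per length, as CPM divided by the summed exon length of GENCODE M21 in kilobases (RPKM), Pcna had the highest level of the members with vehicle, 39.4 ± 0.415 (SD, n = 2). E2f2 had the lowest, 0.601 ± 0.153, and Orc1 the next, 0.848 ± 0.0716. The 6 helicase subunits spanned 13.1 RPKM (Mcm7) to 26.3 RPKM (Mcm4) with vehicle and 9.61 to 24.7 RPKM with TCM, with the same subunits at the ends. Gins4 stood at 33.2 ± 0.273 RPKM with vehicle, above the other GINS subunits, the lowest of which was Gins3 at 3.34 ± 0.180.

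Of the other genes of the pathway, the 34 licensing and replisome genes outside the members held 18 that fell with TCM and 5 that rose with LA, with median log2 FC of −0.57 and 0.27. Ccna2, the cyclin of S phase and G2, had the smallest adjusted P of these in both comparisons (log2 FC −1.41 with TCM, 0.59 with LA). Of 21 genes of the E2F and Rb families and their control, 7 fell with TCM, led by the repressor E2f7 (−1.36), and Rbl1 alone rose with LA (0.62). Among 46 genes of the replication checkpoint, homologous recombination and the Fanconi pathway, 19 fell with TCM, led by the nuclease subunit Eme1 (−1.99), and 0 were called with LA. Of 17 histone chaperones and S-phase chromatin genes, 7 fell with TCM and 2 rose with LA, with Hmgb2 first by adjusted P in both (−1.31 and 0.54). Among all genes tested, 10.2% were called lower with TCM and 1.31% higher with LA.

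Of 33 further enzymes of nucleotide synthesis, 6 fell and 3 rose with TCM, with a median log2 FC of 0.02, where 10.2% of all genes fell and 8.83% rose. Dck, deoxycytidine kinase, fell (−0.77), whereas Ctps, CTP synthase, rose (0.55), and so did Samhd1, which degrades dNTPs (0.48). All 26 reference genes of G2 and mitosis fell with TCM (median −1.37) and 19 rose with LA (median 0.63). Top2a, the topoisomerase that untangles replicated chromosomes, had log2 FC of −1.27 and 0.65, and Mki67, a marker of cycling cells, −1.24 and 0.81. These are mRNA levels. By staining for Ki67, the protein of Mki67, the paper reported no effect of LA or TCM on proliferation of FRCs. Against vehicle, 24 of the 26 G2 and mitosis genes fell with TCM (median −0.74), compared with 5 of the 53 members. Among all genes, 8.9% were called lower there, a share near that of the members. Of 11 CDK inhibitors and D-type cyclins tested, 1 fell and 1 rose, shares near those of all genes just given. Cdkn1a, the p21 inhibitor and a target of p53, fell with TCM (−0.77) and Cdkn2b rose (0.52), while Ccnd1, cyclin D1, had a log2 FC of 0.00 (SE 0.10).

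**Figure D5:**
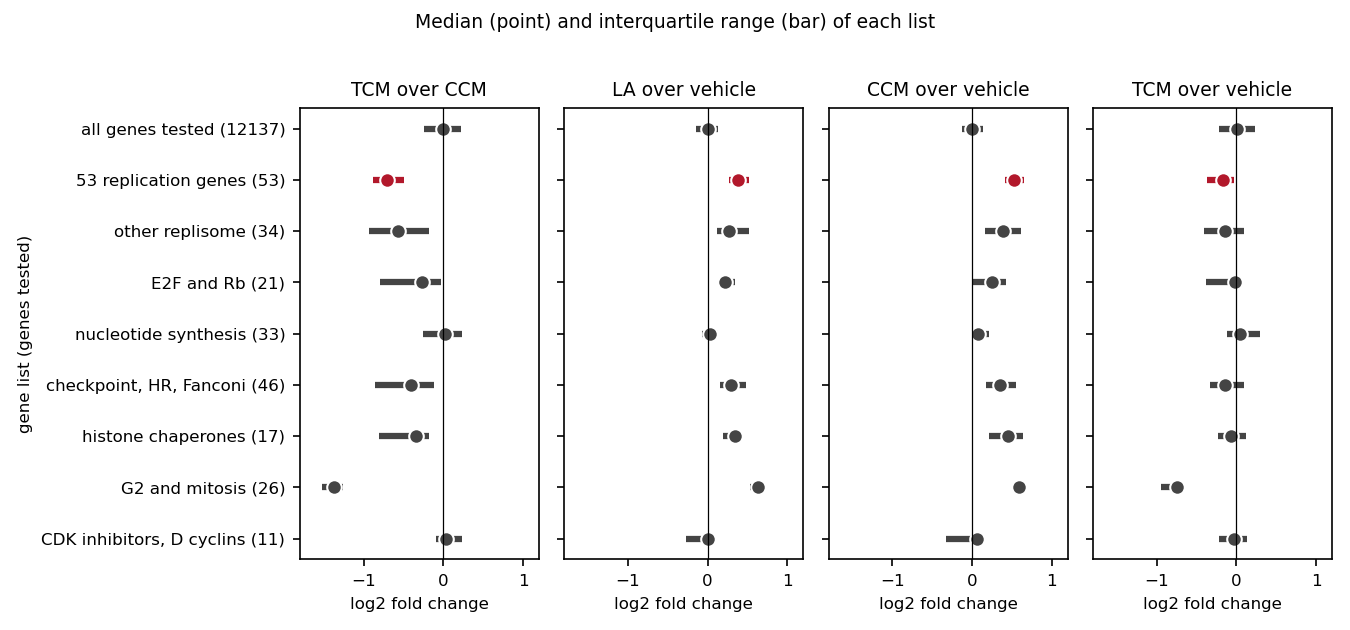
Median log2 fold change (points) of the members, of related gene lists and of all genes tested in 4 comparisons, with bars over the interquartile range and the number of genes in brackets. The members (red) lie at −0.70 for TCM over CCM and 0.38 for LA over vehicle, and the G2 and mitosis genes lie further from 0 in both.

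By position on GRCm38 in GENCODE M21, the members lay on 15 chromosomes, and 27 of 53 overlapped another annotated gene, 13 of them on the same strand. Among those with the smallest adjusted P, Mcm5 (chr8:75109569-75128439, plus strand) and Rrm2 (chr12:24708241-24714146, plus strand) overlapped none. Tk1 (chr11:117815526-117826092, minus strand) overlapped Gm20708 and Afmid on the other strand, and Mcm7 (chr5:138164583-138172422, minus strand) overlapped Cops6 and Ap4m1 there and held 3 microRNA genes on its own. The strand setting of the counting was not given in the sources used here, so reads of such genes may be shared with their neighbors.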

How the data were processed

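Poly(A) RNA of 8 cultures of an FRC line was sequenced as directional libraries. Per the labels and the submitters' processing notes, the authors aligned reads to GRCm38 with STAR 2.7.0a and counted them per gene with featureCounts (Subread 2.0.1), and the counts they deposited are raw whole numbers. A further deposited table, named as normalized by DESeq2 (1.32.0 in the notes), was checked and holds the same raw counts (100% of values, 12137 genes), so it was not used further. No column was left unmapped (0 columns). Groups and replicate numbers came from the sample titles. The members and the gene lists were chosen with earlier results of these data known.

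Genes that reached 10 counts in 3 or more libraries were fitted with edgeR 4.0.16 in R 4.3.3 (TMM factors, a mean per group, all 8 libraries, robust quasi-likelihood test), and P values were adjusted by Benjamini-Hochberg over all 12137 genes. A call needed an adjusted P under 0.05 and a log2 FC beyond 0.39, as in the study's methods. The SE is the size of the log2 FC over the root of its F statistic. CPM used TMM-scaled library sizes, with SD over 2 libraries. An exact 2-sided permutation test of 2 libraries against 2 cannot give a P under 0.333, so none was run. Each gene was tested in the fit above, which shares the estimate of spread between genes. P values measure the spread between these libraries only. Reads carried no molecular identifiers, so floors cover counting error only. Total counts of 8232889 to 14107964 per library set the precision, with a common biological coefficient of variation of 0.0903.

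Members given with the value of every library were, within each role, the 2 with the smallest adjusted P for TCM over CCM and the 1 for LA over vehicle. Orc1, Cdt1, Rrm1, Pcna, Mcm6 and others were added after their values were seen. Of each further list the leading genes by adjusted P were named, with Mki67, Top2a, Cdkn1a and Ccnd1. Positions came from GENCODE M21 and promoters from RefSeq. Of the 54 member promoters, the last 30 bases of 46 were found in a GENCODE transcript as written and 0 as the reverse complement. Scripts were tested on simulated counts.

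The model held no replicate number. Over 12137 genes, deviations of same-numbered libraries from their group means had r from −0.226 (CCM with TCM) to 0.337 (vehicle with LA), so the numbers were not taken as pairs. Alternatives were DESeq2 1.42.0, its size factors, no TMM factors, other filters and fold thresholds, only the libraries compared, a replicate block and leaving out each library.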

Additional observations from a re-analysis of the deposited data

Results flagged for a closer look

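The effect of TCM over CCM and that of LA over vehicle differed, by the test of the difference itself, for 42 of the 53 members, all with the TCM effect below the LA effect. Among all genes tested, 6% differed in that direction and 4.45% in the other. Each effect was taken against its own control, and the controls differed in the members (median log2 FC 0.53 for CCM over vehicle). Against vehicle, the median of the members was −0.17 for TCM and 0.38 for LA. The members with the smallest adjusted P of the difference were Mcm5 (difference of log2 FC −1.58, SE 0.13), Rrm2 (−1.56, SE 0.14) and Mcm7 (−1.29, SE 0.14). Each of the 3 was lower in both TCM libraries than in both CCM libraries and higher in both LA libraries than in both vehicle libraries. The 26 G2 and mitosis genes had a median difference of −2.01, and 26 of 26 were called lower, where 6% of all genes were. That list was chosen with earlier results of these data known, so its count is a description. The part of the G2 and mitosis genes in the differences of the members was not tested.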

How the results depend on the processing

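No called member value changed sign in any alternative (0 of 2295 values recomputed). For TCM over CCM, the difference of effects and LA over CCM, the count of called members stayed within 1.5 times its reported value in every alternative but one, namely 7 lower for TCM over CCM with a log2 FC beyond 1. That range still allows a loss of calls. For TCM over CCM, called members such as Mcm3 (log2 FC −0.63) and Pcna (−0.53) do not pass a threshold of 0.68. For LA over vehicle the count was 3 beyond 0.68 and 0 beyond 1. For CCM over vehicle it was 32 with no filter, 39 with only the libraries compared, 31 with the CCM numbers crossed, 6 beyond 0.68 and 0 beyond 1. For TCM over vehicle it was 11 without TMM factors, 8 with no filter, 2 with only the libraries compared, 8 with the CCM numbers crossed, 0 beyond 0.68 and 0 beyond 1. Without TMM factors the median log2 FC was −0.84 for TCM over CCM, 0.56 for CCM over vehicle, −0.28 for TCM over vehicle and −1.27 for the difference of effects. Leaving out 1 library at a time gave 0 to 22 members for LA over vehicle, 0 to 36 for CCM over vehicle, 2 to 11 for TCM over vehicle, 33 to 45 for TCM over CCM and 35 to 49 for the difference, and a median log2 FC of 0.49 to 0.55 for CCM over vehicle. With the replicate block, the counts were 43 for TCM over CCM, 18 for LA over vehicle, 21 for CCM over vehicle and 44 for the difference. Same-numbered libraries did not vary together across all groups, with r of 0.337 for vehicle with LA but −0.226 for CCM with TCM. The crossed pairing was added after seeing the data. In the 200 bases before the start the E2F share of member promoters was 18.5% in place of 35.2%. Causes of these shifts were not tested. Depth limits E2f2 and Orc1 most, whose counts were the lowest among the members.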

Other observations

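Histone genes themselves, only some of which Slbp serves, were looked at after the values of the members were seen. Of 63 histone genes found by symbol pattern, 6 passed the count filter in these poly(A) libraries, which hold few replication-dependent histone transcripts since most lack a poly(A) tail. H1f2, a linker histone, stood at 39.9 and 42.6 CPM with vehicle, 15.5 and 18.5 with LA, 31.5 and 29.2 with CCM, and 23.5 and 23.03 with TCM. It was lower with LA (log2 FC −1.27 with SE 0.12, adjusted P = 0.000498 by edgeR), with both LA libraries under every other library. H2bc4, a core histone gene, stood at 17.98 and 22.2 CPM with vehicle, 7.10 and 8.82 with LA, 16.3 and 15.01 with CCM, and 12.8 and 9.39 with TCM and was also lower with LA (log2 FC −1.32 with SE 0.19, adjusted P = 0.00547). The other 4 were not called in that comparison, nor was any of the 6 called in TCM over CCM. There H1f2 (log2 FC −0.38, adjusted P = 0.0439 by edgeR) missed only the fold threshold. Against vehicle, H1f2 (log2 FC −0.83), H2bc4 (−0.86) and H4c9 (−1.56) were also called lower with TCM, where 8.9% of all genes were. H4c9 had 6 and 6 counts with TCM, so its value rests on few reads. In the comparison of LA with vehicle, 14 of the 53 replication genes were higher. Whether the share of histone transcripts with a poly(A) tail differed between the groups was not tested.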
